A study of Mus with 8 samples.

Results

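The fibrillar collagens described here are 8 genes, Col1a1, Col1a2, Col3a1, Col5a1, Col5a2, Col5a3, Col11a1 and Col24a1, chosen by name out of 31281 genes tested. They were read by 12 probes of the 56605 on the array, found through the RefSeq transcripts of each gene. Col1a1, Col5a3, Col11a1 and Col24a1 each had a second probe. The tumours grew under the skin of mice from transplanted cells of MC38, a mouse colon cancer line, and were removed after 25 to 30 days. One group of 4 tumours came from hosts with a floxed Ext1 gene (Ext1 flox/flox) and a Cre recombinase under the S100a4 promoter, called the Ext1S100a4Cre host. The other 4 came from wild-type hosts (WT host), and the labels give both as B6 mice. Ext1 encodes a polymerase that extends heparan sulfate chains, and the S100a4 promoter, used to drive Cre in fibroblasts, is also known to be active in macrophages and other leukocytes. The labels give no change of Ext1 in the transplanted MC38 cells. The labels used here give neither age nor sex, and do not say whether WT hosts carried floxed alleles or Cre. RNA came from the whole tumour, so fewer cells of a type and less RNA per cell cannot be told apart.

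Fibrillar collagens form the rope-like fibres that give connective tissue its tensile strength. Each molecule is a triple helix of collagen chains, secreted as a procollagen whose end pieces are cut off before the helices line up into fibrils, and in tumours fibroblasts are the best known source. Type I collagen (Col1a1 and Col1a2) and type III collagen (Col3a1) make up the bulk of soft-tissue fibrils. Type V chains (Col5a1, Col5a2, Col5a3) are minor components that start fibrils and limit their width. Col11a1 encodes a chain of type XI collagen, which plays the corresponding part in cartilage fibrils. Col24a1 encodes a minor fibrillar chain described in developing mouse bone and cornea.

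Levels are given as log2 of the background-subtracted intensity minus the 75th percentile of the same array, so 1 unit is a doubling and 0 is the upper quartile of the array's spots. Levels of different genes come from different probes and are not compared with each other. The arrays' 75th percentiles ran from 846.9 to 1137.6 in the Ext1S100a4Cre host and from 1028.7 to 1265.4 in the WT host. The lowest ones, and the lowest shares of probes well above background (65.7% and 66.0%, against 68.8% to 71.1% on the other 6 arrays), belonged to Ext1S100a4Cre host tumours 1 and 4. In the same pair of tumours the 4 Y-linked genes looked at were not well above background, while in the remaining 6 tumours they were. The hosts were thus unequal in Y-linked signal, and its part in the host differences was not tested. Skeletal muscle markers stood 2.51 and 3.32 above their 8-tumour mean in Ext1S100a4Cre host tumours 2 and 3, and between -1.73 and -0.27 in all others. Ext1 itself measured -0.46 ± 0.15 in the Ext1S100a4Cre host and -0.18 ± 0.33 in the WT host (SD, n = 4 each), a difference of -0.28 (limma SE 0.18, adjusted p = 0.747). The files do not place the Ext1 probe inside or outside the deleted part, so this value does not check the genotype. The MC38 epithelial markers Epcam, Krt8, Krt18, Krt19, Cdh1, Cdx2 and Vil1 were well above background on all 8 arrays, and Cdx1 on 7. Of these 8 markers 7 had a higher mean in the Ext1S100a4Cre host, with a median difference of 0.13. The largest difference was 1.92 for Cdx1 (limma SE 0.61, adjusted p = 0.747), and Krt19 had a lower mean (-0.07).

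Of the 8 fibrillar collagen genes, 7 had a lower mean in tumours of the Ext1S100a4Cre host and Col11a1 had a higher one. The differences of the 7 lay between -2.11 for Col3a1 and -1.03 for Col5a3, which is 4.30-fold to 2.05-fold lower, and Col11a1 was 1.64-fold higher. None passed the test adjusted over all genes (limma with Benjamini-Hochberg adjustment, threshold 0.05). Of the 31281 genes tested limma called 0% at that threshold, and 2050 (6.55%) had unadjusted p under 0.05. Col1a1, Col3a1 and Col24a1 had unadjusted p under 0.05, in the lower direction, as did 2.16% of all genes, and 0 members in the higher direction, as did 4.39% of all genes. A lower mean was found for 41.9% of all genes, and a difference of -1 or less, which 7 members had, for 3.61%. In 7 genes the same 2 tumours were at the ends of the range: Ext1S100a4Cre host tumour 1 was lowest and WT host tumour 3 highest. This was not particular to the collagens. The same 2 tumours were the ends of the first principal component of all genes (-122.0 and 133.3, with 49.8% of the variance), and 9.46% of all genes had them as lowest and highest in this order and 13.1% in the order of Col11a1. Across the 8 tumours that component had an r of 0.71 to 0.93 with the 7 genes and -0.81 with Col11a1. No member separated the groups without overlap, which 4.52% of all genes did. The median difference of the 8 was -1.52, against 0.05 for all genes tested. All 12 member probes passed the filter on dim probes.

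**Figure D1:**
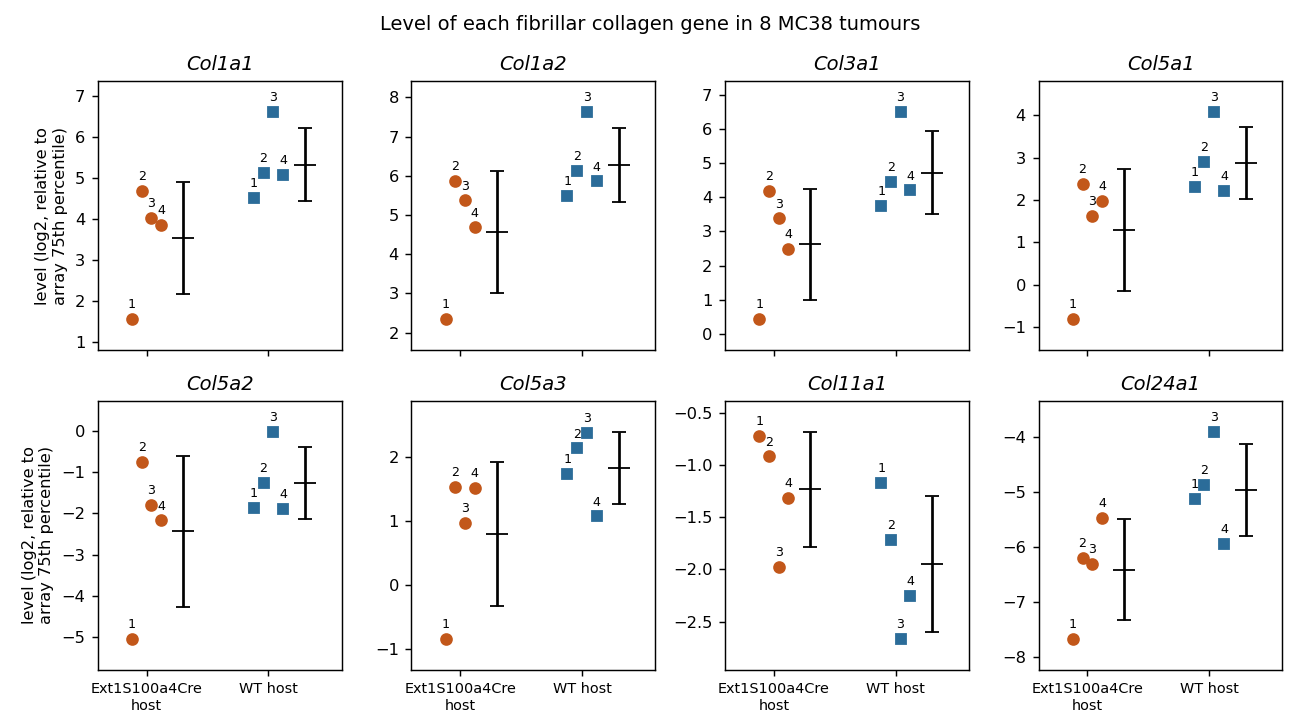
Level of each fibrillar collagen gene (vertical axis, log2 relative to the array's 75th percentile) in 4 tumours of the Ext1S100a4Cre host (circles, left) and 4 of the WT host (squares, right). Numbers are tumour numbers and black bars are mean and SD. In 7 panels Ext1S100a4Cre host tumour 1 lies far below the others and WT host tumour 3 on top, whereas for Col11a1 these 2 tumours lie at the opposite ends.

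Type I collagen was measured by its 2 chains. Col1a1 had levels of 1.55, 4.68, 4.03 and 3.86 in Ext1S100a4Cre host tumours 1 to 4, against 4.51, 5.13, 6.61 and 5.07 in WT host tumours 1 to 4. Only Ext1S100a4Cre host tumour 2 reached into the WT range, which makes the groups overlap by 1 tumour. Their means were 3.53 ± 1.37 and 5.33 ± 0.90 (SD, n = 4 each), a difference of -1.80 (SE 0.71, 95% interval -3.43 to -0.16, limma adjusted p = 0.747). The exact two-sided permutation test over the 70 assignments of tumours gave p = 0.0571, where 0.0286 is the smallest possible value. A second Col1a1 probe, also printed 10 times on each array, differed by -1.78, and the 2 probes ranked the 8 tumours identically.

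Col1a2, the other chain of type I collagen, had levels of 2.35, 5.88, 5.37 and 4.69 in the Ext1S100a4Cre host and 5.50, 6.12, 7.62 and 5.86 in the WT host. Again tumour 2 of the Ext1S100a4Cre host lay among the WT tumours and its tumour 1 far below the rest. The difference was -1.70 (SE 0.79, 95% interval -3.52 to 0.11, limma adjusted p = 0.747, exact permutation p = 0.0857). Over all 8 tumours Col1a2 spanned a 38.8-fold range and Col1a1 a 33.3-fold range.

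Type III collagen, which is laid down with type I in soft tissue and wounds, had the widest range of the 8 genes, 67.2-fold. Col3a1 measured 0.43, 4.19, 3.38 and 2.48 in the Ext1S100a4Cre host, against 3.74, 4.46, 6.50 and 4.20 in the WT host. WT host tumour 3 stood well apart from the other WT tumours, and 1 Ext1S100a4Cre host tumour reached the WT range. Its means were 2.62 ± 1.62 and 4.72 ± 1.22 (SD, n = 4 each). The difference of -2.11 (SE 0.88, 95% interval -4.13 to -0.09) had a limma adjusted p of 0.747 and an exact permutation p of 0.0571.

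Type V chains repeated this order with smaller or less certain differences. Col5a1, the chain present in most type V molecules, measured -0.81, 2.38, 1.63 and 1.98 in the Ext1S100a4Cre host and 2.31, 2.90, 4.07 and 2.22 in the WT host. The overlap was again limited to Ext1S100a4Cre host tumour 2, and the difference was -1.58 (SE 0.73, limma adjusted p = 0.747, exact permutation p = 0.0857). Col5a2, the usual partner chain of Col5a1, measured -5.03, -0.75, -1.79 and -2.17 in the Ext1S100a4Cre host and -1.86, -1.26, -0.02 and -1.90 in the WT host. Here the groups overlapped broadly, since Ext1S100a4Cre host tumour 2 was above 3 of the 4 WT tumours. Its difference was -1.18 (SE 0.88, 95% interval -3.20 to 0.85, limma adjusted p = 0.757, exact permutation p = 0.371).

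Col5a3, the rarest type V chain, measured -0.84, 1.54, 0.97 and 1.52 in the Ext1S100a4Cre host and 1.73, 2.14, 2.38 and 1.08 in the WT host. WT host tumour 4 lay below tumours 2 and 4 of the Ext1S100a4Cre host, so the groups overlapped. The difference was -1.03 (SE 0.55, limma adjusted p = 0.747, exact permutation p = 0.114). A dimmer second Col5a3 probe differed by -0.82, with a Pearson r of 0.97 to the first across the 8 tumours.

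Col11a1 was the only member whose mean was higher in the Ext1S100a4Cre host. It measured -0.73, -0.92, -1.97 and -1.32 in the Ext1S100a4Cre host, against -1.17, -1.72, -2.66 and -2.25 in the WT host. The ends of the range changed places: Ext1S100a4Cre host tumour 1, lowest for the other members, was highest, and WT host tumour 3 was lowest. The groups overlapped, and the means were -1.23 ± 0.55 and -1.95 ± 0.65 (SD, n = 4 each). The difference was 0.72 (SE 0.38, 95% interval -0.16 to 1.59, limma adjusted p = 0.747, exact permutation p = 0.171). A dimmer second probe, well above background on all 8 arrays, differed by 0.38 and followed the first with a Pearson r of 0.83.

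Col24a1 was dim. Its brighter probe measured -7.67, -6.20, -6.32 and -5.48 in the Ext1S100a4Cre host and -5.13, -4.88, -3.91 and -5.95 in the WT host, and in Ext1S100a4Cre host tumour 1 it was not well above background. The groups overlapped through tumour 4 of each host, with Ext1S100a4Cre host tumour 4 (-5.48) above WT host tumour 4 (-5.95). The difference was -1.45 (SE 0.54, 95% interval -2.70 to -0.20, limma adjusted p = 0.747, exact permutation p = 0.0571). The second Col24a1 probe gave -0.44 and was above background in 2 of the 4 Ext1S100a4Cre host tumours and all 4 WT ones. The 2 probes had a Pearson r of 0.59 across tumours. With normexp background correction, which moves dim probes most, the brighter probe differed by -0.23.

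Because no member passed, the size of each difference was also followed as tumours were left out. Without Ext1S100a4Cre host tumour 1 the differences were -1.14 for Col1a1, -0.96 for Col1a2, -1.38 for Col3a1, -0.88 for Col5a1, -0.31 for Col5a2, -0.49 for Col5a3, 0.55 for Col11a1 and -1.03 for Col24a1. The median of the 8 was then -0.92, and 0 members had unadjusted p under 0.05. With all tumours that count was 3. It was also 0 without WT host tumour 2 and without WT host tumour 3. Leaving out Ext1S100a4Cre host tumour 4 or WT host tumour 4 gave 1. Without Ext1S100a4Cre host tumour 3 or WT host tumour 1 it was 4, of which 3 were lower and Col11a1 was higher. Without Ext1S100a4Cre host tumour 2 it was 5, all lower. The share of all genes with unadjusted p under 0.05 was 6.55% with all tumours and moved in the same comparisons: 4.68% without Ext1S100a4Cre host tumour 1, 4.89% without its tumour 4, 9.48% without its tumour 3 and 6.91% without its tumour 2. Without WT host tumours 1 to 4 in turn it was 6.86%, 5.23%, 4.77% and 5.77%. Without tumours 1 and 4 of the Ext1S100a4Cre host, the pair lacking Y-linked signal, the remaining 6 tumours gave -0.97 for Col1a1, -0.65 for Col1a2, -0.94 for Col3a1 and -0.87 for Col5a1. In that comparison Col5a2 differed by -0.01, Col5a3 by -0.58, Col11a1 by 0.50 and Col24a1 by -1.29. Without tumours 2 and 3, the pair with the highest muscle signal, Col1a1 differed by -2.62, Col3a1 by -3.27 and Col11a1 by 0.93. In each of these comparisons 7 members had a lower mean and Col11a1 a higher one.

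**Figure D2:**
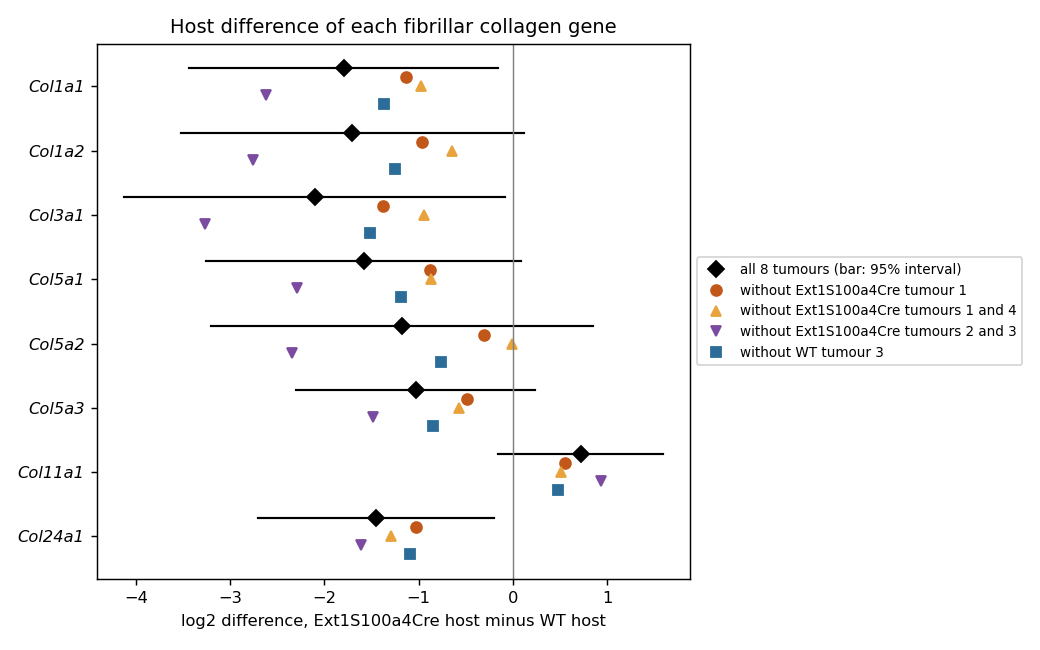
Difference of each gene between hosts (horizontal axis, log2, Ext1S100a4Cre host minus WT host) from all 8 tumours (diamonds, with 95% intervals from limma) and after leaving out the tumours named in the legend. Points of 7 genes lie left of 0 and those of Col11a1 right of it, and for Col5a2 the difference comes to -0.01 without Ext1S100a4Cre host tumours 1 and 4.

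The 8 arrays shared 1 slide, with 2 tumours of each host in either slide row. With slide row as a block, limma's adjusted p values lay between 0.666 and 0.756. Within slide row 1 the difference was -1.70 for Col1a1, -1.70 for Col1a2, -1.79 for Col3a1, -1.83 for Col5a1, -1.33 for Col5a2, -1.58 for Col5a3, 0.62 for Col11a1 and -1.93 for Col24a1. Slide row 2 gave -1.89, -1.71, -2.42, -1.34, -1.02, -0.48, 0.81 and -0.97 for the same genes in that order. All 8 directions were the same in both rows.

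Apart from Col11a1, the chains varied together from tumour to tumour. Among the 21 pairs that leave out Col11a1, Pearson's r across the 8 tumours ran from 0.81 to 0.99 and Spearman's rho from 0.52 to 1 (Pearson's exact permutation p adjusted over all 28 pairs between 4.63e-04 and 0.0298, Spearman's between 0.00139 and 0.22). Col1a1 and Col1a2, partners in type I collagen, had r = 0.99 and rho = 0.98, and Col1a1 and Col3a1 had r = 0.99 and rho = 1. Without Ext1S100a4Cre host tumour 1 and WT host tumour 3, the 2 tumours farthest from the median, Col1a2 and Col3a1 kept r = 0.995, Col1a1 and Col1a2 r = 0.91, and Col5a3 and Col24a1 r = 0.85. Col5a1 then had r = 0.84 with Col5a3 and 0.54 with Col5a2. The relation of Col24a1 to Col1a2, with r = 0.86 over 8 tumours and 0.07 over 6, rests on those 2 tumours, as does that to Col5a2 (0.81 and -0.15). All members of a tumour were read on the same array with the same scaling.

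Col11a1 ran against the other members. Its r to the 7 others lay between -0.75 and -0.52 and its rho between -0.67 and -0.36. After adjustment over the 28 pairs its exact permutation p was between 0.0288 and 0.188 for Pearson's r and between 0.106 and 0.389 for Spearman's rho. Without the 2 extreme tumours its r lay between -0.25 and 0.49, so the inverse relation rests on them. With each host's mean removed, r lay between -0.61 and -0.29 for the pairs with Col11a1 and between 0.74 and 0.99 for the other 21.

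**Figure D3:**
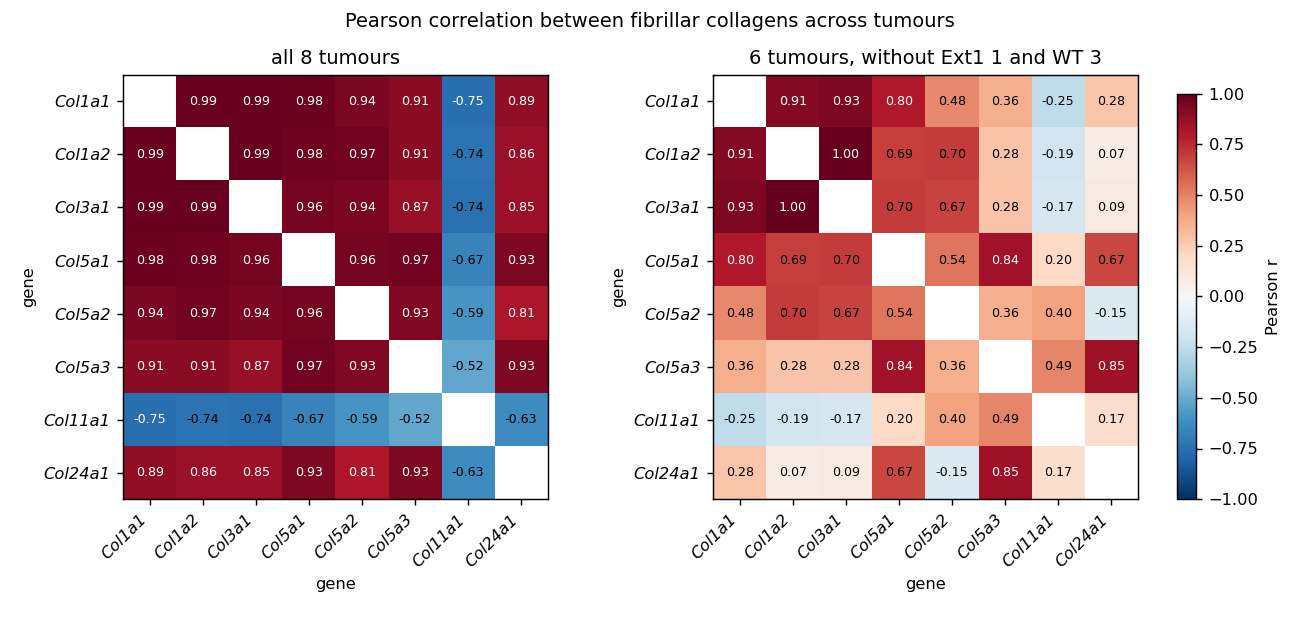
Pearson correlation between each pair of fibrillar collagen genes, across all 8 tumours (left) and across 6 tumours without Ext1S100a4Cre host tumour 1 and WT host tumour 3 (right). Over 8 tumours r is at least 0.81 among 7 genes and negative in the Col11a1 row, while over 6 tumours high values remain in the block of Col1a1, Col1a2 and Col3a1 and between Col5a1, Col5a3 and Col24a1 in part.

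Tumours of 1 host also differed more in these genes than in most. The SD between tumours of a host, pooled over both hosts, was 1.16 for Col1a1, 1.43 for Col3a1, 1.44 for Col5a2 and 0.60 for Col11a1, and its median over all genes tested was 0.30. Col5a2 and Col3a1 ranked at the 97.1st and 97.0th percentile of all genes by this SD, Col1a1 at the 94.4th and Col11a1 at the 80.6th.

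Whether 2 chains differed between hosts by unequal amounts was tested on their difference within each tumour, for 28 pairs. The difference between Col1a1 and Col1a2 moved by -0.09 between hosts (-1.04 ± 0.27 in the Ext1S100a4Cre host and -0.94 ± 0.10 in the WT host, SD, n = 4 each, exact permutation p = 0.486). A difference between the 2 chains of type I collagen was thus not detected. The largest shifts involved Col11a1. Relative to Col24a1 it measured 2.17 higher in the Ext1S100a4Cre host without overlap (exact permutation p = 0.0286, 0.24 after adjustment over the 28 pairs). This value includes Ext1S100a4Cre host tumour 1, where Col24a1 was not well above background and has only a bound. It was 0.81 with normexp (exact permutation p = 0.143) and 1.49 with the mean of a gene's probes (exact permutation p = 0.0571). Col3a1 minus Col11a1 moved by -2.82 (exact permutation p = 0.0857, 0.24 adjusted).

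Col3a1 and Col5a2 are neighbours in the RefSeq gene order of assembly GRCm38.p6. Their difference within a tumour averaged 5.05 ± 0.34 in the Ext1S100a4Cre host and 5.98 ± 0.42 in the WT host (SD, n = 4 each). The difference between hosts was -0.93, without overlap (exact permutation p = 0.0286, 0.24 after adjustment). These were the 2 pairs of 28 without overlap. Among levels of single genes 4.52% had none, which is not a rate for pairs, and a rate for pairs was not computed. With 1 tumour left out the Col3a1 to Col5a2 difference ran from -1.07 to -0.75.

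The mean of the fibroblast markers moved with that of the members (r = 0.95 across the 8 tumours). The macrophage and endothelial means did so too (r = 0.94 and 0.97), so this was not particular to the fibroblast list. Not every fibroblast marker moved with the members. All 15 markers listed, none of them a collagen, were tested and had a lower mean in the Ext1S100a4Cre host. Their median difference was -1.27, and 0 had unadjusted p under 0.05. Single differences ran from -3.30 for Dpt to -0.02 for Pdgfra. Pdgfra and Fbln1 (-0.04) had an r to Col1a1 of 0.13 and -0.31. Relative to its 8-tumour mean, the mean of the 15 stood at -3.20, 1.10, 0.41 and -0.995 in Ext1S100a4Cre host tumours 1 to 4 and at 0.03, 0.63, 2.01 and 0.02 in the WT host. The summed level of the 15 ran from 3.46 to 6.83 in the Ext1S100a4Cre host and from 5.29 to 7.33 in the WT host. Of the defining markers, Dpt and Twist2 were not well above background on every array, Dpt in 2 and Twist2 in 1 of the Ext1S100a4Cre host tumours. Of the 8 macrophage markers 7 had a lower mean, with a summed level of 4.27 to 5.57 in the Ext1S100a4Cre host and 5.13 to 6.90 in the WT host. The 5 endothelial markers all had a lower mean (summed level 0.71 to 2.39 in the Ext1S100a4Cre host and 1.99 to 2.47 in the WT host). Lower means were also found for 7 of 8 myofibroblast and pericyte markers (summed level 2.96 to 4.49 in the Ext1S100a4Cre host and 3.97 to 4.84 in the WT host) and for 4 of 4 Schwann cell markers (-2.54 to -0.37 in the Ext1S100a4Cre host and -2.02 to 1.74 in the WT host). All 4 erythrocyte markers had a higher mean (median difference 1.88, 3 with unadjusted p under 0.05, summed level 7.04 to 9.48 in the Ext1S100a4Cre host and 5.80 to 7.5004 in the WT host). All 7 skeletal muscle markers tested also had a higher mean, with a median difference of 2.73. Of these, 4 had unadjusted p under 0.05, as did 4.39% of all genes in that direction. The muscle list's summed level was 0.06 to 4.08 in the Ext1S100a4Cre host and -0.70 to 0.53 in the WT host. Actn3 and Mb had no overlap, as had 4.52% of all genes, and Mb was well above background in only 1 WT host tumour. The part of these other cell types in the collagen differences was not tested.

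**Figure D4:**
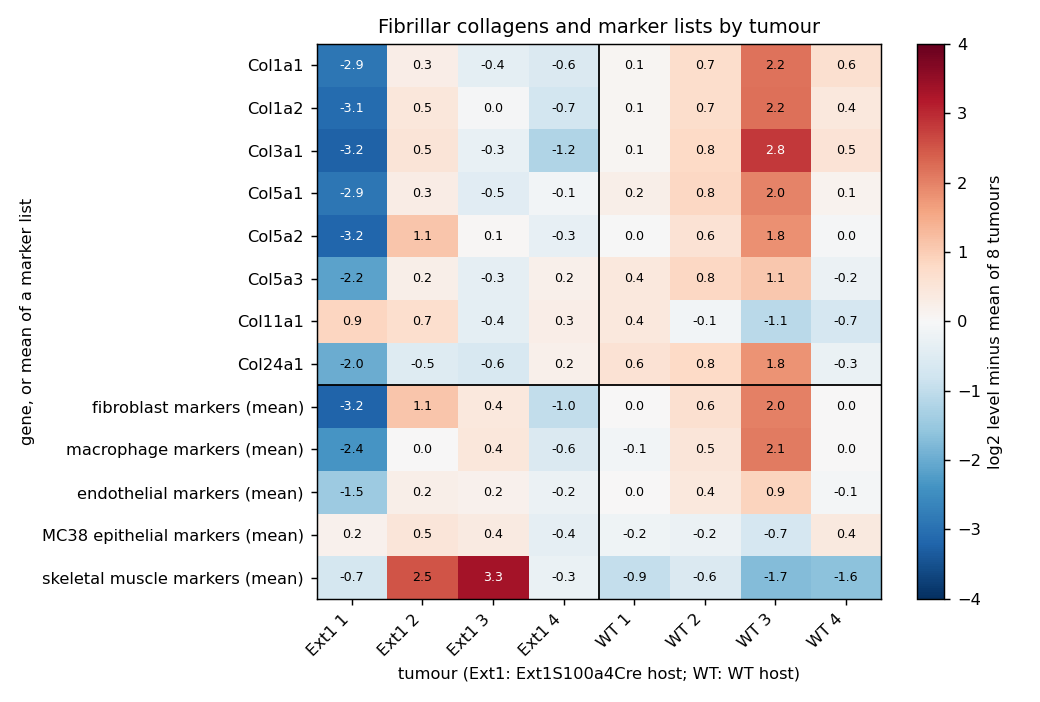
Log2 level minus the mean of the 8 tumours for the 8 fibrillar collagens (rows above the line) and for the means of 5 marker lists (rows below it), with Ext1S100a4Cre host tumours in the left columns and WT host tumours in the right ones. Ext1S100a4Cre host tumour 1 is lowest and WT host tumour 3 highest for 7 collagens (not Col11a1) and for the fibroblast, macrophage and endothelial lists. These tumours stand at -3.20 and 2.01 for the fibroblast list, -2.36 and 2.08 for the macrophage list and -1.45 and 0.89 for the endothelial list. The skeletal muscle row follows another order.

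Set against the mean of the 15 fibroblast markers of the same tumour, the differences of most members were closer to 0. That mean differed by -1.34 between hosts and single markers by -3.30 to -0.02, so the values depend on which markers are averaged. Col1a1 minus the fibroblast mean was 3.84 ± 0.70 in the Ext1S100a4Cre host and 4.29 ± 0.26 in the WT host (SD, n = 4 each), a difference of -0.46 (exact permutation p = 0.343) where Col1a1 alone differed by -1.80. Col1a2 differed by -0.36, Col5a1 by -0.24, Col24a1 by -0.11, Col5a2 by 0.16 and Col5a3 by 0.31, with exact permutation p between 0.257 and 0.886. With normexp the differences were -0.83 for Col1a1 (exact permutation p = 0.0571), -0.72 for Col1a2 (exact permutation p = 0.0286, 0.114 adjusted over the 8 members) and -0.56 for Col5a1 (exact permutation p = 0.143). With only probes well above background on all 8 arrays they were -0.59 for Col1a1 (exact permutation p = 0.171), -0.49 for Col1a2 (exact permutation p = 0.0571) and -0.38 for Col5a1 (exact permutation p = 0.314). In the main comparison Col11a1 differed by 2.06 (exact permutation p = 0.2) and lay between -2.75 and 2.10 in the Ext1S100a4Cre host and between -5.04 and -1.56 in the WT host. Except for Col3a1 and Col11a1, these directions turned in at least 1 comparison with tumours left out.

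Col3a1 had no overlap on this scale. Relative to the fibroblast markers it measured 3.26, 2.72, 2.61 and 3.11 in the Ext1S100a4Cre host, against 3.35, 3.46, 4.12 and 3.82 in the WT host. Each Ext1S100a4Cre host tumour lay below each WT host tumour, by little in the closest case (3.26 and 3.35). The difference was -0.76 (exact permutation p = 0.0286, the smallest possible, and 0.229 adjusted over the 8 members), so it did not pass. With normexp it was -1.12 with the same unadjusted p. With 1 tumour left out it ran from -0.88 to -0.62.

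**Figure D5:**
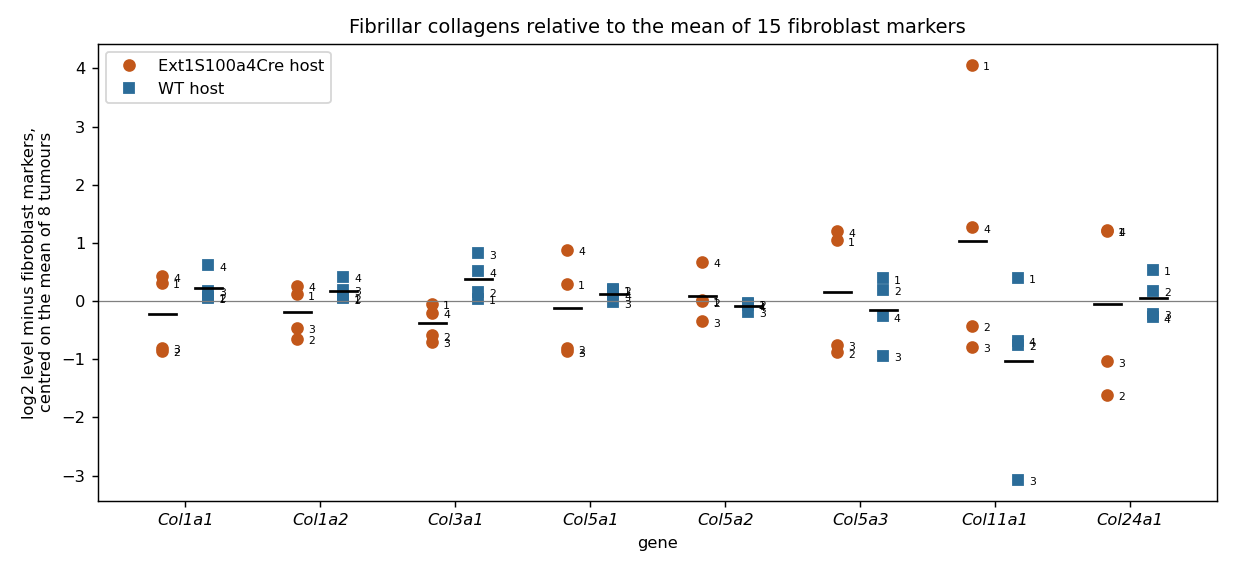
Each gene's log2 level minus the mean of 15 fibroblast markers in the same tumour, centred on the mean of the 8 tumours (vertical axis), for the Ext1S100a4Cre host (circles, left of each pair) and the WT host (squares, right). Numbers are tumour numbers and short lines are group means. The hosts do not overlap for Col3a1 (difference -0.76), and Col11a1 spreads widest.

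Fibrillar collagen genes outside the 8 followed the majority in part. Col2a1, the collagen of cartilage fibrils, measured -3.57, 0.01, -0.68 and -1.75 in the Ext1S100a4Cre host and -0.27, 0.44, 2.76 and 0.18 in the WT host. The same 2 tumours formed the ends of its range, and the difference was -2.28 (SE 0.89, unadjusted p = 0.0339, limma adjusted p = 0.747). Col27a1 differed by -1.44 (SE 0.61, limma adjusted p = 0.747) and Col11a2, partner of Col11a1 in type XI collagen, by -0.05 (SE 0.18). In Ext1S100a4Cre host tumour 1 Col27a1 was not well above background (level -7.04), so its difference is uncertain in size. Of 5 chondrocyte markers Matn1, Matn3 and Hapln1 were too dim to be tested, as were Bglap, Ibsp and Dmp1 of 5 osteoblast markers. The remaining chondrocyte markers, Acan (-0.61) and Sox9 (-0.79), were well above background on all 8 arrays. So was the osteoblast marker Alpl (0.78), while Sp7 (0.33) was in only 2 WT host tumours and all 4 of the other host. Limma adjusted p of these lay between 0.767 and 0.926.

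Other genes of the collagen pathway were counted by their step, 92 genes in all, of which 86 were tested and 0 passed over all genes in limma. Of the 86, 63 had a lower and 23 a higher mean, and at unadjusted p under 0.05 there were 2 in each direction. Among all genes 41.9% had a lower mean, and 2.16% were lower and 4.39% higher at that p, so the number of calls in these lists was near or below the share of all genes. The lower 2 were Col2a1 and Col27a1. The higher 2 were Col20a1 and Col22a1, collagens with interrupted helices that associate with fibrils or tissue junctions. Col22a1, known from muscle-tendon junctions, measured -0.32, 0.12, 0.18 and -0.47 in the Ext1S100a4Cre host and -1.05, -1.17, -3.31 and -0.94 in the WT host, a difference of 1.498 without overlap (SE 0.52, limma adjusted p = 0.747). Col20a1 differed by 0.75 without overlap (SE 0.18, limma adjusted p = 0.733), and 4.52% of all genes had no overlap. Of 9 fibril-associated collagens 6 had a lower mean, among them Col9a1 at -1.26 (SE 0.55).

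Genes that fold and modify procollagen inside the cell stood near 0. Lower means were found for 9 of the 17 tested and higher ones for 8, with a median difference of -0.07. P4ha3, a prolyl hydroxylase subunit, differed by -0.95 (SE 0.47), P3h1, a prolyl 3-hydroxylase, by 0.29 (SE 0.18) and P3h4 by 0.39 (SE 0.33). Serpinh1, the dedicated collagen chaperone, named after its value was seen, differed by -0.25 (SE 0.30).

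Genes that act on collagen outside the cell had lower means in most cases. For removal of the procollagen end pieces 5 of 6 tested genes were lower (median -0.69), with Pcolce, an enhancer of that cleavage, at -1.13 (SE 0.75), its relative Pcolce2 at -2.44 (SE 1.44) and Adamts14, a procollagen N-proteinase, at 0.44 (SE 0.22). All 6 cross-linking genes were lower (median -0.87), among them the lysyl oxidase genes Loxl1 at -1.93 (SE 1.14), Loxl2 at -0.79 (SE 0.58) and Loxl3 at -0.95 (SE 0.77). Of 15 fibril-binding matrix genes 13 were lower (median -1.32), with dermatopontin (Dpt) at -3.30 (SE 1.62), asporin (Aspn) at -1.65 (SE 0.82) and tenascin X (Tnxb) at -2.16 (SE 1.17).

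Among collagen receptors 6 of 9 were lower (median -0.38), with Mrc2, an endocytic collagen receptor, at -1.66 (SE 0.88), the integrin chain Itga11 at -1.93 (SE 1.04) and the platelet receptor Gp6 at 0.41 (SE 0.20). All 7 tested collagenases and uptake genes were lower (median -1.01), led by Mmp2 at -2.13 (SE 1.34), Mmp9 at -1.88 (SE 1.26) and Fap at -1.06 (SE 0.89). Of 14 regulators of type I collagen transcription 8 were lower (median -0.15), with the TGF-beta receptor Tgfbr1 at -0.49 (SE 0.22), Twist1 at -0.71 (SE 0.38) and scleraxis (Scx) at 0.80 (SE 0.43). Without Ext1S100a4Cre host tumour 1 the medians came to -0.11 for receptors, -0.33 for removal of end pieces, -0.066 for cross-linking, -0.27 for fibril-binding genes and -0.25 for collagenases and uptake. Without Ext1S100a4Cre host tumours 1 and 4 they came to 0.070 for cross-linking, 0.018 for collagenases and uptake, -0.087 for fibril-binding genes and 0.36 for fibril-associated collagens. P4ha3, Pcolce2, Mrc2 and Mmp9 were not well above background in Ext1S100a4Cre host tumour 1, so the sizes of their differences are uncertain. Limma's adjusted p of every pathway gene named here with a difference lay at or above 0.733. Several of these genes also stand in the fibroblast marker list, namely Dcn, Lum, Dpt, Fap, Loxl1 and Mmp2.

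By pattern over the 8 tumours, the genes most like the mean of the 8 members were Col27a1 (r = 0.99), Vasn (0.99), Sat1 (0.98), Pcolce (0.98), Kcnk13 (0.98), Ebf3 (0.98), Fam107b (0.98) and the fibroblast marker Pdpn (0.98). In all, 670 of 31233 genes with a value on every array, or 2.15%, had r over 0.9 to that mean, with the members themselves counted among the genes. With Col11a1 left out of the mean, Sat1, Kcnk13, Fam107b and Col27a1 stayed among the 8 most alike, and Vasn, Pcolce, Ebf3 and Pdpn did not. For Col11a1 alone 263 genes had r over 0.9, or 0.842%, with Col11a1 itself counted. The gene nearest to it, named after its value was seen, was Spry2 (r = 0.98), an inhibitor of growth factor signalling, whose mean was 0.40 higher in the Ext1S100a4Cre host.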

How the data were processed

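Total RNA of 8 whole tumours, 0.5 µg each per the labels' protocols, was labelled with Cy3 for 1-colour Agilent arrays, 1 tumour per array. Feature Extraction made the scanner files, in version 10.7.3.1 per the file headers and 9.1 per the submitters' processing notes. Each deposited value is the linear intensity of 1 spot, which the software had corrected for background, per the file headers. Other deposited columns hold flags of 0 or 1. The deposited series matrix equalled the scanner intensities (within 0.01% for 100% of probes, median ratio 1), so it carries no scaling, no centring and no change of direction, with column medians from 47.1 to 80.0.

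Outlier spots (53 to 132 per array) and 3671 control spots were left out, log2 intensities were averaged over spots of a probe, and the array's 75th percentile over spots was subtracted. Probes well above background on at least 4 arrays were kept (39716), and a gene was represented by its brightest kept probe. Names came from RefSeq accessions of GRCm38.p6 (32994 probes named, 23611 not). The headers name build mm9, so no coordinates are given. The host comparison, without covariates, was fitted in R 4.3.3 with limma 3.58.1, and adjusted (Benjamini-Hochberg) over 31281 genes and unnamed transcripts. Exact permutation tests used all 70 assignments, or all 40320 pairings for a correlation. Summed level means log2 of the summed relative intensities of a list. The code of the fit was tried on simulated data with noise drawn independently for each gene and tumour. Genes varied together in the real tumours, so this says nothing on the results. The design text gives 4 mice per host, and each tumour was taken as 1 mouse.

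The members and lists were chosen with earlier results of these data known. All members are named. Of each pathway list the 3 genes with the smallest unadjusted p are named, and Serpinh1 and Spry2 were added after their values were seen. The 8 genes most alike are named by Pearson r. Precision is limited by how far dim probes stand above background and by there being 4 arrays per host. Alternatives were normexp, quantile and median scaling, the series matrix, 2 other filters, the mean of a gene's probes, blocks, array weights, a trended variance, a threshold of 0.1 and leaving out tumours.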

Additional observations from a re-analysis of the deposited data

Results flagged for a closer look

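In the WT host the genes for removal of procollagen end pieces stood at 1.35 relative to their 8-tumour mean in tumour 3, whose gap to the nearest WT tumour was large for the range of the 4. Of 50 groups of 4 tumours looked at, this 1 was picked out, and chance picks out about 1 in 20.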

How the results depend on the processing

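All 8 members kept their direction under every alternative that gave a value, with adjusted p between 0.281 and 0.999. Tumours numbered 1 and 3 deviated together (r of 0.49 and 0.59), those numbered 2 and 4 did not (-0.16 and -0.25), and 4 of 8 tumours correlated best with their own number in the other host, so the numbers were not taken as pairs. With the replicate block 6 members had unadjusted p under 0.05 (10.4% of all genes), against 3 (6.55%). That count was 5 with median scaling (5.43%), the series matrix (8.72%) or array weights (9.58%), 1 in slide row 1 (5.63%), 1 without Ext1S100a4Cre host tumours 1 and 4 (5.82%), 5 without its tumours 2 and 3 (17.1%), and 0 to 5 with 1 tumour left out. Over all genes limma called 1 gene with normexp, 1 with array weights, 11 without tumours 1 and 4, and 0 to 2 with 1 tumour left out (2 without WT host tumour 3). The causes were not tested.

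The median of the members was -0.76 without tumours 1 and 4 and -2.32 without tumours 2 and 3. Of the list medians, normexp gave -0.52 for the other fibrillar and -0.24 for the fibril-associated collagens, and the series matrix -0.32 for folding and -0.40 for regulators. Without tumours 1 and 4 the medians were 0.36 for fibril-associated collagens, 0.070 for cross-linking, -0.087 for fibril-binding proteins and 0.018 for collagenases. Without tumours 2 and 3 they were -1.58, -1.77, -2.88 and -2.04 in the same order, 0.071 for folding, -1.48 for end-piece removal and -0.30 for regulators. Slide row 1 gave -0.26 for fibril-associated collagens and slide row 2 gave 0.084 for regulators.

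Some differences changed sign. Relative to fibroblast markers Col24a1 came to 0.75 with normexp, 0.40 with the mean of its probes, 0.33 in slide row 2 and 1.16 without tumours 2 and 3. In the last case Col1a1 came to 0.14, Col1a2 to 0.0077, Col5a1 to 0.47, and Col1a1 minus Col1a2 to 0.14. Without tumours 1 and 4 Col5a2 came to -0.095 and Col5a3 to -0.66 (-0.21 in slide row 1) relative to these markers, Col1a1 minus Col3a1 to -0.033 and Col1a1 minus Col24a1 to 0.32. Slide row 1 gave 0.23 for the last pair and 0.12 for Col1a1 minus Col5a1.

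With 1 tumour left out Col1a1 minus Col1a2 ran from -0.18 to 0.0066. Relative to the fibroblast markers Col5a1 ran from -0.58 to 0.0025, Col5a2 from -0.032 to 0.31, Col5a3 from -0.042 to 0.65 and Col24a1 from -0.53 to 0.41. The list medians ran from -1.22 to -0.066 for cross-linking (-0.066 without Ext1S100a4Cre host tumour 1) and from -0.29 to -0.048 for regulators. Of the 2050 unadjusted calls over all genes 676 were lower, and the share of lower calls was 42.5% with median scaling, 93.6% with the series matrix, which shifts the median of all genes to -0.20, and 14.8% with normexp. Relative to that median the members' median was -1.57, and between -1.57 and -1.36 under those scalings.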
